A study of Rattus norvegicus with 9 samples.

Results

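The organic ion uptake transporters described here are 55 of the 14497 rat genes that had a probe set of their own on the array. They are every measured gene whose symbol belongs to the families Slc10a (7 genes), Slco (14), Slc22a (15), Slc47a (2), Slc16a (10), Slc28a (3) and Slc29a (4). The naming rule used no measured value of a gene, although the families were picked with earlier results of these data known. The 9 arrays (Affymetrix Rat ST 1.0) each carried RNA of 1 preparation of F344 rat liver cells, with 3 preparations in each of 3 groups. The adult group held hepatocytes of rats aged 5 to 6 weeks, released by a collagenase perfusion of the liver in 2 steps. Both fetal groups came from livers of embryonic day 19 digested with collagenase and enriched on a magnetic sorter with antibodies to leucine aminopeptidase, which marks the hepatic cell surface, and to OC.2, described by the submitters as a ductal marker. The titles name one fetal group OC.2+ and the other OC.2-, and the division used below rests on those titles, since the protocol text gives the same selection of double positive cells for both. The labels also differ on leucine aminopeptidase: titles and cell type entries call both fetal groups positive for it (LAP+), while the short descriptions of the OC.2+ preparations read LAP-OC2+. Whether that hyphen is a minus sign is not stated, so the LAP status of OC.2+ cells is unsettled in all that follows. No genotype, transgene or drug is named for any group. The labels do not say whether a preparation pooled several animals or came from a separate one, so p-values measure only the spread between these preparations. The name of the series concerns how fetal hepatocytes engraft and repopulate a liver, and no measurement of engraftment is part of the data used here.

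The liver takes up much of what the intestine absorbs, and many charged molecules enter hepatocytes through carriers. Some Slc10a carriers bring in bile acids together with sodium. Slco proteins (the organic anion transporting polypeptides) take up bilirubin, hormones, prostaglandins and many drugs without sodium. Slc22a carriers move organic anions, organic cations and carnitine. Slc47a proteins exchange organic cations for protons at the exit side of the cell. Slc16a proteins carry lactate, pyruvate, ketone bodies and aromatic amino acids, and the Slc28a and Slc29a families carry nucleosides with and without sodium. In rodents several of these genes are known to reach their full hepatic level only after birth, and the fetal liver is at the same time a site of blood cell formation.

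Values are log2 of the deposited intensity, so a step of 1 is a doubling, and a level of one gene is not set against that of another because each probe set has its own brightness. A gene was called at an adjusted p under 0.05 in limma's test (Benjamini-Hochberg adjustment over all 14497 genes). The median log2 level of all genes was 6.31 to 6.34 on the adult arrays, 6.43 to 6.49 on the OC.2- arrays and 6.45 to 6.47 on the OC.2+ arrays. Of the 55 transporter genes, 17 lay above their array's median on all 9 arrays, 20 on none and 18 on some. The files carry no detection call, so a gene near or under these medians may not be expressed at all. Precision rests on 3 arrays in each group, and the standard error of a difference had a median of 0.095 over all genes. Slco1a1 and Slc22a5, both known hepatic carriers, had no probe set assigned to them alone and were not analysed here.

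The labelled cell types were checked against lists of marker genes. The summed level of 11 hepatocyte markers (log2 of the sum of intensities) was 16.23 to 16.35 in the adult group, 16 to 16.12 in OC.2- and 14.78 to 14.94 in OC.2+ cells. The sum of 5 fetal liver markers was 8.86 to 9.03, 15.09 to 15.18 and 13.57 to 13.63 in the same order. All 5, Afp, H19, Igf2, Dlk1 and Gpc3, were called higher in both fetal groups than in adult cells, and OC.2+ cells had the lower values of the fetal groups (5 of 5 called). Of 12 erythroid markers 10 were measured, and their sum was 9.4 to 9.53 in adult, 13.55 to 13.85 in OC.2- and 14.94 to 14.97 in OC.2+ cells. The sum of 12 granulocyte markers was 9.78 to 9.82, 9.69 to 9.83 and 14.29 to 14.46, so it was high in OC.2+ cells alone. Markers of sinusoidal endothelium, 9 of 12 measured, summed to 9.86 to 10.24 in adult, 12.16 to 12.6 in OC.2- and 9.76 to 9.78 in OC.2+ cells. The sums of the 5 measured of 7 biliary markers differed little, at 8.23 to 8.3, 8.4 to 8.54 and 8.35 to 8.39. Of these 5, 2 were called higher and 0 lower in OC.2- than adult cells, Krt19 (0.92, limma adjusted p = 2.83e-06) and Cftr (0.24, 0.0427). Krt19 was the only one called between the fetal groups, lower in OC.2+ cells (-0.56, limma adjusted p = 0.000265). Stellate and mesenchymal markers summed to 10.17 to 10.35, 12.32 to 12.54 and 11.82 to 12.09. Vim alone had means of 7.14, 11.24 and 11.48 in that order, and so weighed heavily in both fetal sums. Of the 11 markers on this list, 10 were called lower in OC.2+ than OC.2- cells, beside 18.2% of all genes, and Vim was not called (0.24). Macrophage markers summed to 10.32 to 10.44, 11.29 to 11.7 and 10.91 to 11.18, and megakaryocyte markers to 8.87 to 8.95, 9.35 to 9.46 and 10.66 to 10.82. In bulk RNA of this kind, fewer cells of a type and less RNA per cell cannot be told apart, and the part of cell composition in the transporter differences below was not tested.

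Against adult hepatocytes, OC.2- cells had lower values for the main bile acid and organic anion carriers of the hepatocyte. Of the 55 genes, 21 (38.2%) were called lower and 6 (10.9%) higher, where 20.9% of all genes were called lower and 23.7% higher. At least 2-fold, 12 (21.8%) were lower and 2 (3.64%) higher, against 6.58% and 4.06% of all genes. The adult and OC.2- arrays did not overlap for 21 genes that were lower and 10 that were higher in OC.2- cells, beside 23.2% and 28.2% of all genes. The median log2 difference of the 55 was -0.09, and that of all genes was 0.07. The lowest differences were those of Slco1a4, Slc10a1, Slc22a8, Slco2b1, Slco1b2, Slc22a18, Slc16a4 and Slc16a7, between -5.08 and -2.07.

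OC.2+ cells fell further for each of these 8 carriers other than Slco1a4, and rose for a few monocarboxylate and nucleoside carriers. Against OC.2- cells, 10 of the 55 genes (18.2%) were called lower and 6 (10.9%) higher, beside 18.2% and 20.3% of all genes. The share called lower was thus that of the whole array. At least 2-fold, 8 (14.5%) were lower and 1 (1.82%) higher, against 6.63% and 3.69% of all genes. The arrays of the fetal groups did not overlap for 11 genes lower and 10 higher in OC.2+ cells, beside 20.7% and 25.8% of all genes. The 3 lowest differences were those of Slco1b2 at -2.78, Slco2a1 at -2.66 and Slc10a1 at -2.5, and the highest was that of Slc16a10 at 1.44. Over the 55 genes the median difference was 0.01, and over all genes 0.04.

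For OC.2+ cells against adult hepatocytes, 18 of the 55 genes (32.7%) were called lower and 11 (20%) higher, beside 23.4% and 32% of all genes. After cyclic loess scaling these counts were 21 lower and 8 higher. At least 2-fold, 13 (23.6%) were lower and 3 (5.45%) higher, against 11.1% and 7.82% of all genes. The arrays did not overlap for 18 genes lower and 13 higher in OC.2+ cells, beside 25% and 37.2% of all genes. The median difference of the 55 was 0.04, beside 0.11 over all genes. These 3 comparisons share their groups, so a gene that is low in OC.2+ cells enters 2 of them with the same arrays.

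**Figure D1:**
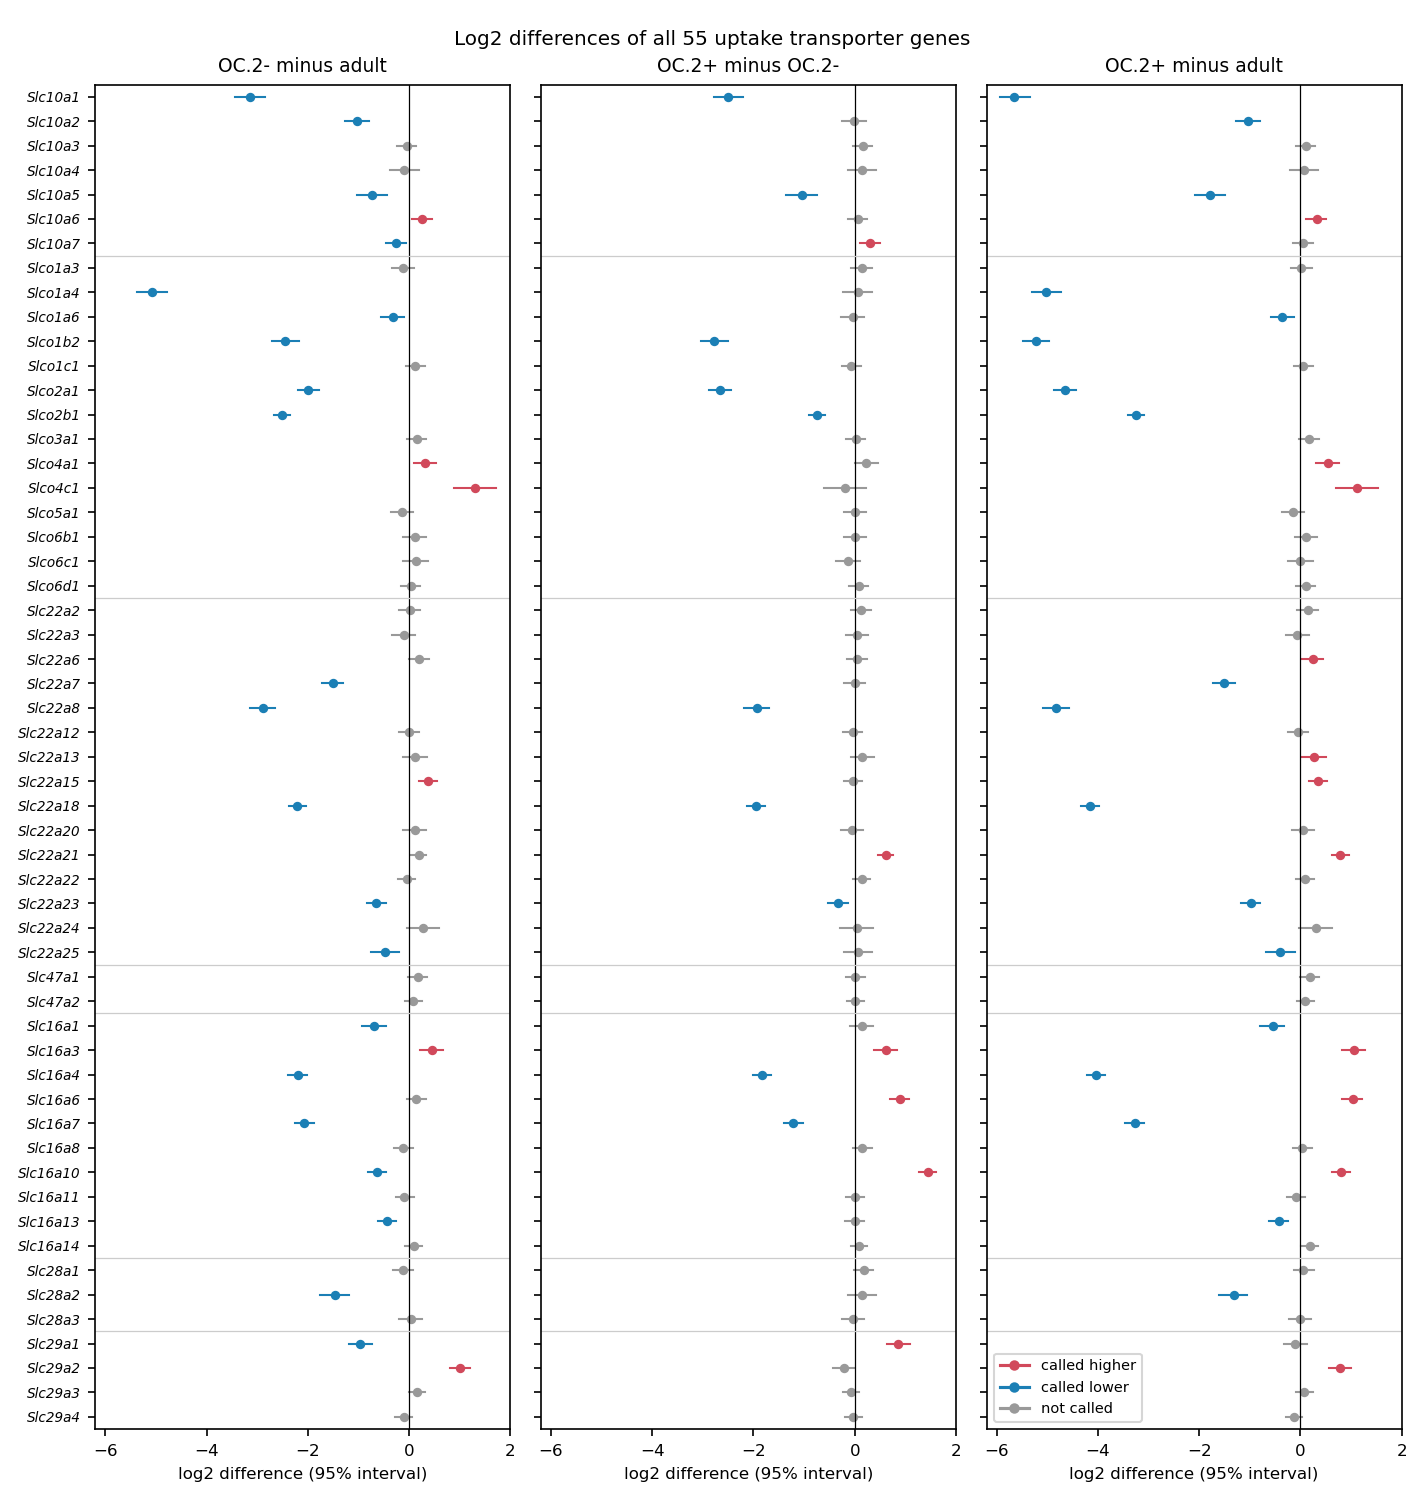
Log2 difference (x axis, with its 95% interval) of each of the 55 transporter genes (rows, grouped by family) in the 3 comparisons; red and blue points were called higher and lower at adjusted p under 0.05, and grey points were not called. Slc10a1, Slco1a4, Slco1b2, Slco2a1, Slco2b1, Slc22a8, Slc22a18, Slc16a4 and Slc16a7 lie far to the left in OC.2+ against adult cells, while most other genes sit near 0.

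Promoter sequences were available for 46 of the 55 genes in RefSeq (build GRCr8), each of 300 bases from 250 before to 50 after the start of the gene. The 6 shown belong to Slc10a1, Slco1b2, Slc22a8 and Slc16a7, which were lower in both fetal groups and lower again in OC.2+ cells, to Slco1a4, which had the lowest difference in OC.2- against adult cells, and, for contrast, to Slc16a10, the gene with the highest in OC.2+ against OC.2- cells. Capitals mark AGGTCA, the half-site of many nuclear receptors, or its reverse complement TGACCT. The sequences of Slc22a8, Slc16a7 and Slco1a4 hold neither and have no capitals. They are printed 5′ to 3′ on the strand of the gene, at chr6:106357895-106358194 (minus strand) for Slc10a1, chr4:176282334-176282633 (plus) for Slco1b2, chr1:214927034-214927333 (plus) for Slc22a8, chr7:63040349-63040648 (minus) for Slc16a7, chr4:176495797-176496096 (minus) for Slco1a4 and chr20:45122309-45122608 (minus) for Slc16a10.
Slc10a1: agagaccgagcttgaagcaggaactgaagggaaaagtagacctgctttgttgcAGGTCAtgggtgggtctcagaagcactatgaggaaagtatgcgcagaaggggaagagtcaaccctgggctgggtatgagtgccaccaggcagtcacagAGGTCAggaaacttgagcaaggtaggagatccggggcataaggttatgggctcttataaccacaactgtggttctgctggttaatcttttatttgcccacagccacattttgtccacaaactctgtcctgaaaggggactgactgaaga
Slco1b2: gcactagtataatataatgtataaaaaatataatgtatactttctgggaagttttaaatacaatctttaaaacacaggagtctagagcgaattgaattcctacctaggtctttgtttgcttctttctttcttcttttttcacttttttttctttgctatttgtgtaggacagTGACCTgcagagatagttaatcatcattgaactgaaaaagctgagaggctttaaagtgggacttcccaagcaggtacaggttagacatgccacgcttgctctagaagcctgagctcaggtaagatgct
Slc22a8: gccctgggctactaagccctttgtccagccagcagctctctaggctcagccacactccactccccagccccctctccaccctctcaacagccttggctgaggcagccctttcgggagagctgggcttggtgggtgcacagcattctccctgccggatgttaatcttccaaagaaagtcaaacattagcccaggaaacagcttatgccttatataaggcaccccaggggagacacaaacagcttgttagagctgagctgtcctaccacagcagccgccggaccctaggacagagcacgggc
Slc16a7: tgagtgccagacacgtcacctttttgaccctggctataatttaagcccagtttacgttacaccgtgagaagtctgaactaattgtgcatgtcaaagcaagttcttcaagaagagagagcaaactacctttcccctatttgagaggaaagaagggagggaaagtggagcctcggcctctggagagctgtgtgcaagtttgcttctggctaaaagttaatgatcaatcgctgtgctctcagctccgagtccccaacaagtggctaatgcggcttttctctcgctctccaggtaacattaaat
Slco1a4: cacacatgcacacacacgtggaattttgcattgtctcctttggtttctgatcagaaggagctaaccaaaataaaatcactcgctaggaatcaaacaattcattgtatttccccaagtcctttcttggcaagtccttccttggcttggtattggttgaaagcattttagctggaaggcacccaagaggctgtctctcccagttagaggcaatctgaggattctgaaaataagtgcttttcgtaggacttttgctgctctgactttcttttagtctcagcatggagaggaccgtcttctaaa
Slc16a10: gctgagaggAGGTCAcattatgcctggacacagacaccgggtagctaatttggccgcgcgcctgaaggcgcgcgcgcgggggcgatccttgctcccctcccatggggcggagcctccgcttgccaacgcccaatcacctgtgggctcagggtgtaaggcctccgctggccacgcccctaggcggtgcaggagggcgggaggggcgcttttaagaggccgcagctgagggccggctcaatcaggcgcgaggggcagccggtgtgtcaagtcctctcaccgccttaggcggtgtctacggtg

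In Slc10a1 the capitals start 197 and 99 bases before the start of the gene, in Slco1b2 78 bases before it on the opposite strand, and in Slc16a10 241 bases before it. Over the 46 promoters, 9 (19.6%) held this half-site on either strand, and 16.2% of all 33469 promoters of that length did. The gene that rose and some of those that fell thus hold it alike. The values of 7 motifs, each searched on both strands, are given in all. CAAAGTCCA, a form of the HNF4 site, was in 0 of the 46 and 0.391% of all. The C/EBP form TTGCNNAA was in 10 (21.7%, against 10.6%) and the FOXA form TGTTTAC in 0 (against 3.78%). Blood cell factors were represented by the GATA form AGATAA, in 2 promoters (4.35%, against 11.6%), and the PU.1 form GAGGAAGT, also in 2 (4.35%, against 2.42%). TATAAA was in 5 (10.9%, against 14.2%). These matches describe letters in a window and show no binding.

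Among the Slc10a genes, Slc10a1 encodes the sodium-dependent carrier that returns bile acids from portal blood to the hepatocyte. Its log2 intensity was 12.43, 12.45 and 12.44 on the adult arrays, 9.20, 9.54 and 9.14 on the OC.2- arrays and 7.12, 6.58 and 6.68 on the OC.2+ arrays. The groups form 3 separate steps with no overlap, and the OC.2+ values lie less than 1 unit above the array medians. OC.2- cells were 8.86-fold lower than adult cells (95% interval 7.22 to 10.9), OC.2+ cells were 5.65-fold lower than OC.2- cells (4.60 to 6.94, limma adjusted p = 1.00e-08) and 50.1-fold lower than adult cells (40.8 to 61.5, limma adjusted p = 1.50e-12). Beside this, 10 of the 11 hepatocyte markers were called lower in OC.2+ cells when set against OC.2- cells, with a median difference of -2.34, and 6 were lower and 1 higher in OC.2- than in adult cells, with a median of -0.46.

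Slc10a5, a relative of the bile acid carriers found in liver and kidney, followed the same order at dimmer values. It measured 6.68, 6.57 and 6.91 in adult, 5.82, 6.35 and 5.79 in OC.2- and 4.87, 4.96 and 4.97 in OC.2+ cells. The groups did not overlap, and all fetal levels were under the array medians. It fell 1.66-fold in OC.2- against adult cells (limma adjusted p = 0.000728) and 2.07-fold in OC.2+ against OC.2- cells (limma adjusted p = 3.72e-05). Slc10a2, the bile acid carrier of the ileum and the bile duct, was picked out after its values were seen. It stood at 7.20, 6.99 and 7.49 in adult cells and at 6.13 to 6.28 in both fetal groups, a 2.05-fold fall in OC.2- cells (limma adjusted p = 5.82e-06) with no call between the fetal groups (difference -0.01, 95% interval -0.25 to 0.23, limma adjusted p = 0.977).

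Slc10a7, a member linked to skeletal development and calcium handling, moved little. It read 7.91, 8.01 and 7.90 in adult, 7.87, 7.64 and 7.55 in OC.2- and 8.01, 7.95 and 8.01 in OC.2+ cells. Only OC.2- cells stood lower, by -0.26 against adult cells (limma adjusted p = 0.0337) and with OC.2+ cells 0.31 above them (0.0150). The first call ended without any single array other than OC.2- replicate 1 and those of OC.2+ cells, with limma adjusted p from 0.0505 without adult replicate 3 and 0.0566 and 0.100 without adult replicates 1 and 2 to 0.0932 and 0.116 without OC.2- replicates 2 and 3. It also ended after cyclic loess (-0.12, 0.262) and quantile normalization (-0.08, 0.465), with array weights (-0.18, 0.124), the mean of the probe sets (-0.17, 0.190), all rows of the table (0.0511) and only the groups compared (0.0671). OC.2+ and adult cells differed by 0.05 with no call, but by 0.28 with a call after quantile normalization (0.0119). The OC.2+ against OC.2- call ended without OC.2- replicate 2 (0.0527) or 3 (0.0559), and with the mean of the gene's pair of probe sets (0.101). The other 3 members, Slc10a3, Slc10a4 and Slc10a6, had levels of 5.75 to 6.67. Slc10a6 was called higher in OC.2- than adult cells (0.26, limma adjusted p = 0.0349), though the arrays overlapped. That call ended after cyclic loess, median centring and quantile normalization (0.174 to 0.287) and in several other settings. Its call in OC.2+ against adult cells (0.32, limma adjusted p = 0.0105) ended after cyclic loess (0.137) and quantile normalization (0.0796). In all, 4 of the 7 Slc10a genes were called lower and 1 higher in OC.2- against adult cells, and 2 lower and 1 higher in OC.2+ against OC.2- cells. The lower calls were 57.1% and 28.6% of the family, beside 20.9% and 18.2% of all genes. The higher calls were 14.3% in each comparison, beside 23.7% and 20.3%.

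The Slco family showed the greatest fall of any member in OC.2- cells. Slco1a4, which takes up bile acids, steroid conjugates and digoxin, measured 10.17, 10.33 and 10.43 in adult cells, 5.34, 5.04 and 5.31 in OC.2- cells and 5.22, 5.59 and 5.06 in OC.2+ cells. Every fetal array lay about 1 unit below its median, and the fetal groups overlapped. The fall was 33.8-fold in OC.2- (27.7 to 41.3, limma adjusted p = 8.94e-12) and 32.4-fold in OC.2+ cells (26.5 to 39.5). Between the fetal groups the difference was 0.06 ± 0.13 (SE, n = 3 per group), with an interval from -0.23 to 0.35 and no call (limma adjusted p = 0.783).

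Slco1b2, the main liver-specific member in rodents and a carrier of bilirubin and statins, behaved differently between the fetal groups. Its values were 11.57, 11.57 and 11.44 in adult, 9.19, 9.29 and 8.75 in OC.2- and 6.38, 6.23 and 6.28 in OC.2+ cells. OC.2- cells thus kept a level well above the array median, and OC.2+ cells did not. The difference was 5.46-fold between adult and OC.2- cells (4.54 to 6.56, limma adjusted p = 3.87e-09), 6.86-fold between OC.2- and OC.2+ cells (5.71 to 8.25, limma adjusted p = 1.54e-09) and 37.5-fold between adult and OC.2+ cells (31.2 to 45.0), each time with the fetal or OC.2+ group lower.

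Both genes lie in one run of Slco1 genes, in the order Slco1c1, Slco1b2, Slco1a4, Slco1a1, Slco1a3, Slco1a6 and Slco1a5 in the RefSeq table. Slco1c1, the thyroid hormone carrier of the blood-brain barrier, had levels of 5.31 to 5.66 on all 9 arrays with no call in the comparisons made. Slco1a3 had 4.66 to 5.13, also with no call. For Slco1a6, levels were 5.34 to 5.60 in adult, 5.12 to 5.25 in OC.2- and 4.90 to 5.25 in OC.2+ cells, all under the array medians. Its differences of -0.32 and -0.36 from adult cells were called (limma adjusted p = 0.0271 and 0.0119). The first lost its call without adult replicate 1 (0.0811) or 2 (0.0911) or without OC.2- replicate 1 (0.0699) or 2 (0.0795), and the second without OC.2+ replicate 3 (0.0571). Slco1a genes are close in sequence, so a dim member could carry signal of its neighbour.

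**Figure D2:**
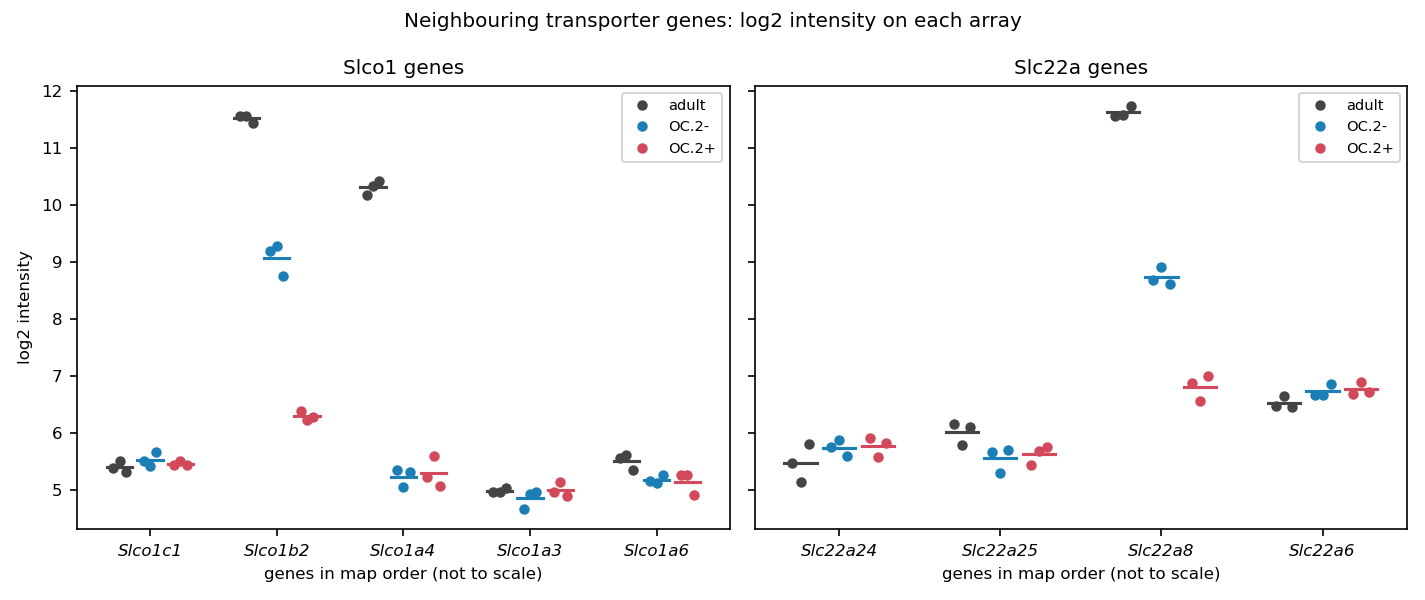
Log2 intensity on each array (y axis, points) with the group mean (bars) in adult, OC.2- and OC.2+ cells. Neighbouring genes stand in map order (x axis, not to scale), Slco1 genes on the left and Slc22a genes on the right. Some genes lying between them are left out. In each run only Slco1b2, Slco1a4 and Slc22a8 exceed a level of 7, and their adult values are the highest.

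Slco2a1 encodes the prostaglandin transporter, and Slco2b1 a widely expressed carrier of steroid sulfates and drugs. Slco2a1 measured 11.66, 11.58 and 11.67 in adult, 9.74, 9.76 and 9.45 in OC.2- and 7.06, 6.84 and 7.07 in OC.2+ cells, again 3 separate steps. It was 3.96-fold lower in OC.2- than adult cells (3.42 to 4.60, limma adjusted p = 3.83e-09) and 6.32-fold lower in OC.2+ than OC.2- cells (5.45 to 7.33, limma adjusted p = 3.68e-10). Endothelium also expresses this gene, and all 9 measured endothelial markers were called higher in OC.2- than adult cells and lower in OC.2+ than OC.2- cells. Their part in its level was not tested. Slco2b1 stood at 9.19, 9.27 and 9.33, then 6.77, 6.78 and 6.72, then 6.03, 5.98 and 6.03. The step from adult to OC.2- cells was 5.70-fold (5.11 to 6.35) and the one to OC.2+ cells 1.67-fold (1.5 to 1.86, limma adjusted p = 2.39e-06). OC.2+ values lay under the array medians, so the latter fold may be limited by background, and the steps are not ranked.

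Both Slco genes called higher in fetal than in adult cells belong to the Slco4 branch. Slco4c1, a carrier of digoxin and thyroid hormone known from kidney, measured 5.73, 4.8 and 5.54 in adult, 6.72, 6.72 and 6.54 in OC.2- and 6.40, 6.35 and 6.68 in OC.2+ cells. The adult arrays were the lowest and the most scattered. It rose 2.47-fold in OC.2- (1.86 to 3.28, limma adjusted p = 8.53e-05) and 2.17-fold in OC.2+ cells (1.63 to 2.88, limma adjusted p = 0.000212), with no call between the fetal groups (-0.19, interval -0.60 to 0.22). Slco4a1, a widely expressed thyroid hormone carrier, read 5.90, 6.11 and 5.99, then 6.30, 6.32 and 6.32, then 6.49, 6.77 and 6.35. It rose 1.45-fold in OC.2+ against adult cells (limma adjusted p = 0.000635). The 1.24-fold difference of OC.2- from adult cells (limma adjusted p = 0.0268) lost its call without adult replicate 1 (0.0973) or 3 (0.0644) or OC.2- replicate 1 (0.0586), 2 (0.0602) or 3 (0.0593), and also under all 3 other scalings (0.117 to 0.210). The difference between the fetal groups, 0.23, was not called (limma adjusted p = 0.114), except without OC.2+ replicate 3 (0.0346).

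Across the family, 5 of the 14 Slco genes were called lower and 2 higher in OC.2- against adult cells, and 3 were called lower in OC.2+ against OC.2- cells. Lower calls were 35.7% and 21.4% of the family, beside 20.9% and 18.2% of all genes. Higher calls were 14.3% and 0% in the same order, beside 23.7% and 20.3%. The other 8 members (Slco1a3, Slco1a6, Slco1c1, Slco3a1, Slco5a1, Slco6b1, Slco6c1 and Slco6d1) had levels of 3.94 to 6.55. Their differences ran from -0.36 to 0.17 over the 3 comparisons. Slco5a1, not called as fitted, was called lower in both fetal groups than in adult cells after cyclic loess and quantile normalization (-0.29 to -0.26). Several of these 8 genes are known from brain or testis.

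In the Slc22a family, Slc22a8, Slc22a18, Slc22a7, Slc22a23 and Slc22a25 were called lower in both fetal groups than in adult hepatocytes. Slc22a8, an organic anion carrier best known for drug uptake in the kidney, measured 11.57, 11.59 and 11.74 in adult, 8.69, 8.92 and 8.62 in OC.2- and 6.87, 6.56 and 6.99 in OC.2+ cells. No array of one group reached those of the next. It fell 7.41-fold from adult to OC.2- cells (6.23 to 8.82, limma adjusted p = 4.61e-10) and 3.83-fold from OC.2- to OC.2+ cells (3.22 to 4.56, limma adjusted p = 2.23e-08), and OC.2+ cells were 28.4-fold below adult cells (23.9 to 33.8). Its neighbour Slc22a6, the partner carrier of the kidney, had 6.46 to 6.65 in adult, 6.66 to 6.86 in OC.2- and 6.68 to 6.90 in OC.2+ cells. Slc22a6 was called higher in OC.2+ than adult cells (0.24, limma adjusted p = 0.0420). That call ended after cyclic loess, median centring and quantile normalization (0.154 to 0.310) and in several other settings. Slc22a25, on the other side of Slc22a8, stood at 5.79 to 6.15 in adult and at 5.29 to 5.74 in the fetal groups, all under the array medians. It was called lower in OC.2- (-0.47, limma adjusted p = 0.0104) and OC.2+ cells (-0.40, 0.0204). The second call ended without adult replicate 1 (0.0825) or 3 (0.0688) or OC.2+ replicate 1 (0.0944). Further along on that side, past UST4r and Ust5r among others, Slc22a24 had 5.13 to 5.90 with no call as fitted. Without adult replicate 3 it was called higher in OC.2- (limma adjusted p = 0.0196) and OC.2+ cells (0.0102) than in adult cells.

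Slc22a18, an imprinted gene whose product resembles organic cation carriers, lies between Cdkn1c and Phlda2. It read 11.36, 11.46 and 11.50 in adult, 9.28, 9.28 and 9.13 in OC.2- and 7.27, 7.36 and 7.21 in OC.2+ cells. These 3 levels did not overlap and were about evenly spaced. OC.2- cells were 4.62-fold below adult cells (4.09 to 5.21, limma adjusted p = 1.94e-10), and OC.2+ cells 3.87-fold below OC.2- cells (3.43 to 4.36, limma adjusted p = 8.41e-10) and 17.8-fold below adult cells (15.8 to 20.1).

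Slc22a7, an organic anion carrier of the hepatocyte's blood side, was low in both fetal groups alike. Values were 7.80, 7.89 and 7.86 in adult, 6.25, 6.32 and 6.45 in OC.2- and 6.16, 6.32 and 6.53 in OC.2+ cells. The fetal groups overlapped and lay near the array medians. The fall was 2.85-fold in OC.2- (2.46 to 3.30, limma adjusted p = 4.99e-08) and 2.86-fold in OC.2+ cells (2.47 to 3.31). Between the fetal groups the interval of the log2 difference was -0.22 to 0.21. Slc22a23, a brain and liver member with no settled substrate that was picked out after its values were seen, went from 9.52 to 9.60 in adult to 8.78 to 9.04 in OC.2- and 8.48 to 8.68 in OC.2+ cells, a difference of -0.65 ± 0.09 (SE) for the first step and -0.33 ± 0.09 for the next (limma adjusted p = 4.44e-05 and 0.00743). After quantile normalization the first was -0.19 and not called (limma adjusted p = 0.0772).

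Slc22a21 and Slc22a15 ran the other way. Slc22a13 (0.27, limma adjusted p = 0.0453) and Slc22a6 were also called higher in OC.2+ than adult cells, but neither call held under the other scalings. Slc22a21, a carnitine carrier, measured 7.39, 7.42 and 7.51 in adult, 7.67, 7.62 and 7.58 in OC.2- and 8.19, 8.22 and 8.28 in OC.2+ cells. The OC.2+ arrays were the highest without overlap, 1.52-fold above OC.2- cells (1.36 to 1.70, limma adjusted p = 1.65e-05) and 1.73-fold above adult cells (1.55 to 1.93, limma adjusted p = 6.90e-07). OC.2- and adult cells differed by 0.19, which missed the threshold (limma adjusted p = 0.0543) but passed it in 6 other settings. These were cyclic loess (0.31, limma adjusted p = 0.00297), quantile normalization (0.29, 0.00418), array weights (0.0325), both filters on dim genes (0.0490 and 0.0391) and the fit without adult replicate 3 (0.0465). Its symbol also stands on a probe set shared with other genes, so signal from a relative cannot be told apart. Slc22a15, a carrier of zwitterions and cations, had 6.56, 6.59 and 6.54 in adult against 6.85 to 7.04 in OC.2- and 6.85 to 7.02 in OC.2+ cells. It rose 1.3-fold in OC.2- (limma adjusted p = 0.00185) and 1.27-fold in OC.2+ cells (0.00271), and the fetal groups overlapped.

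Of the 15 Slc22a genes, 5 were called lower and 1 higher in OC.2- against adult cells, 3 lower and 1 higher in OC.2+ against OC.2- cells, and 5 lower and 4 higher in OC.2+ against adult cells. Lower calls were 33.3%, 20% and 33.3% of the family in that order, beside 20.9%, 18.2% and 23.4% of all genes, and higher calls 6.67%, 6.67% and 26.7%, beside 23.7%, 20.3% and 32%. The share lower in OC.2+ against OC.2- cells is thus near that of all genes. Slc22a2 and Slc22a3, neighbouring organic cation carriers, had levels of 5.79 to 6.22 with no call. Slc22a12, the urate carrier of the kidney tubule, stood at 6.87 to 7.19 in all groups, with a difference between OC.2- and adult cells of 0.00 (interval -0.19 to 0.19).

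Neither Slc47a gene was called in any comparison. Slc47a1, the cation and proton exchanger of the bile canaliculus and kidney tubule, measured 5.47, 5.62 and 5.57 in adult, 5.65, 5.65 and 5.87 in OC.2- and 5.65, 5.72 and 5.84 in OC.2+ cells. Slc47a2, its neighbour on the map, stood at 5.94 to 6.19 on all arrays. Each of these values lay under its array's median. By limma, 0 of the 2 genes were called in each comparison and 0 had an unadjusted p under 0.05. The interval for Slc47a1 in OC.2+ against adult cells was -0.01 to 0.37.

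**Figure D3:**
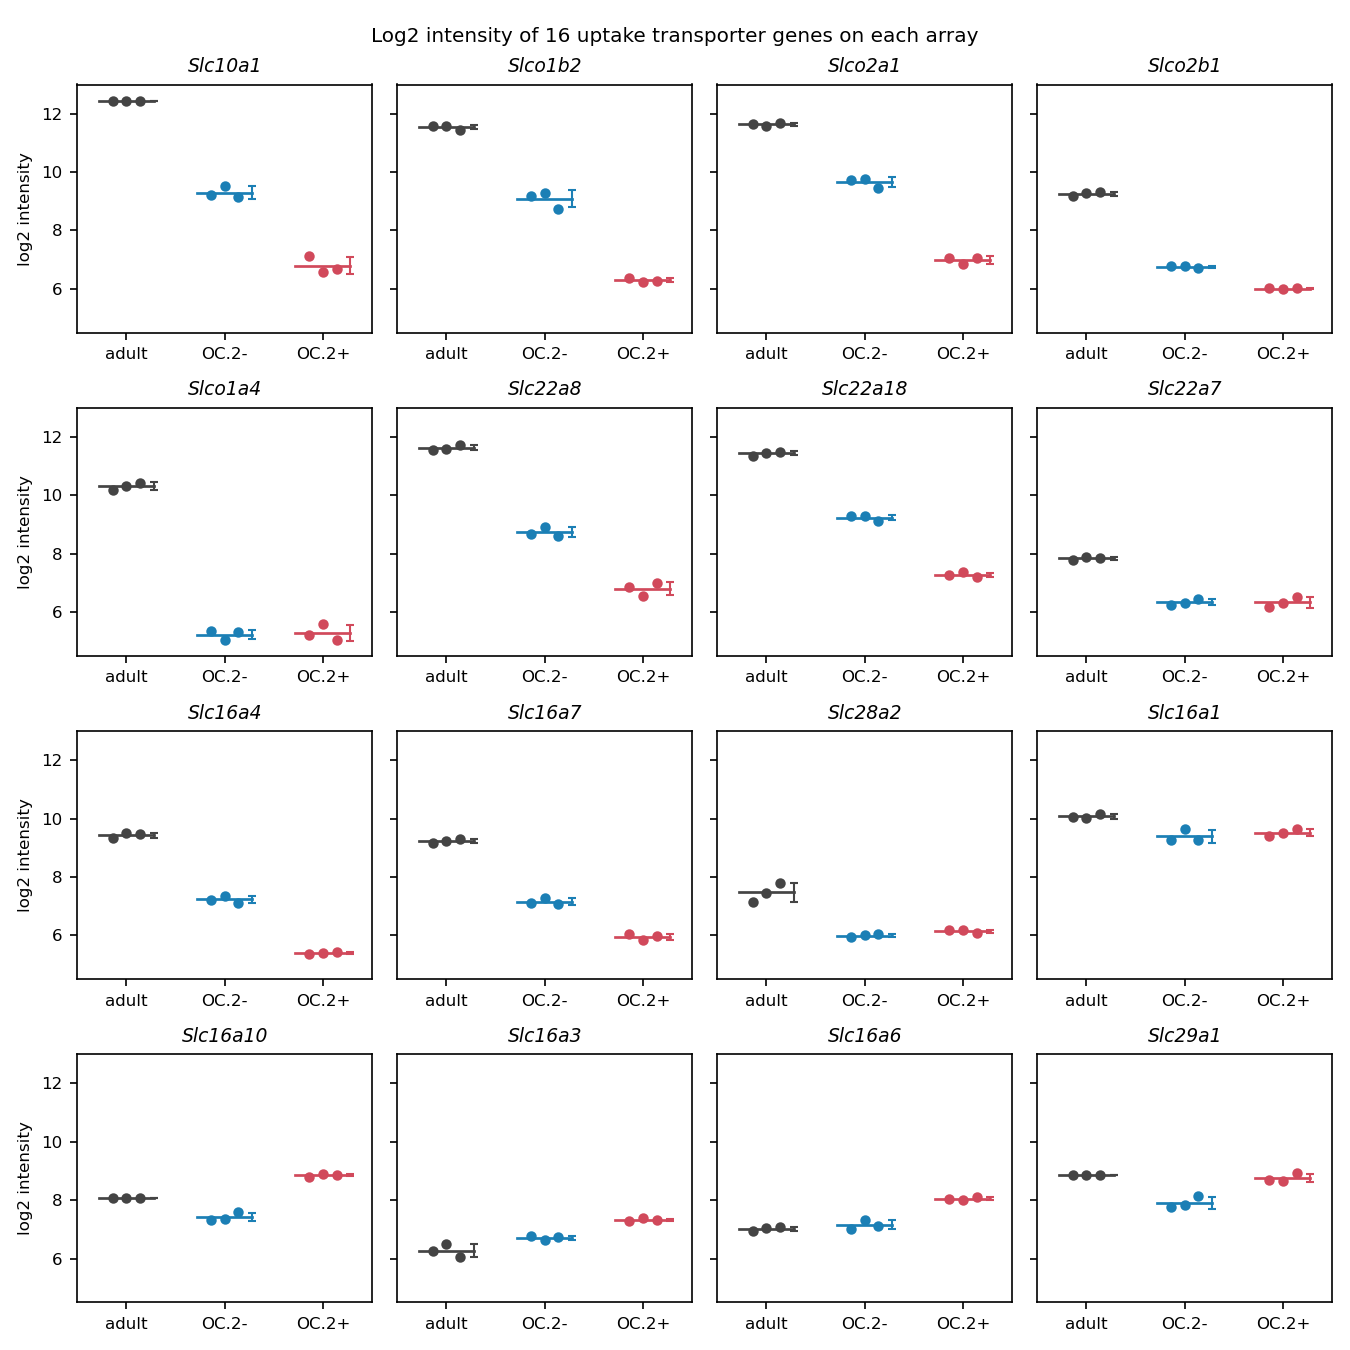
Log2 intensity (y axis) of 16 transporter genes on each of the 9 arrays (points), by group, with the group mean (bar) and SD (n = 3). Slc10a1, Slco1b2, Slco2a1, Slc22a8, Slc22a18, Slc16a4 and Slc16a7 step down from adult to OC.2- to OC.2+ cells, Slco1a4, Slc22a7 and Slc28a2 are low in both fetal groups, and Slc16a10, Slc16a3 and Slc16a6 are highest in OC.2+ cells.

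The monocarboxylate family Slc16a held genes that fell and genes that rose. Slc16a4, a member of little known substrate, measured 9.34, 9.49 and 9.47 in adult, 7.20, 7.36 and 7.12 in OC.2- and 5.35, 5.41 and 5.42 in OC.2+ cells. It ended about 1 unit under the array median in OC.2+ cells, 16.4-fold below adult cells (14.5 to 18.6, limma adjusted p = 4.43e-13). Slc16a7, the high-affinity pyruvate and lactate importer, read 9.16, 9.23 and 9.29, then 7.10, 7.29 and 7.09, then 6.04, 5.84 and 5.98. The groups again did not overlap, with falls of 4.19-fold (3.68 to 4.76) and 2.31-fold (2.03 to 2.63, limma adjusted p = 1.16e-07) at the successive steps.

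Slc16a1, the general lactate, pyruvate and ketone body carrier, kept a high value everywhere. It stood at 10.04, 10.02 and 10.16 in adult, 9.27, 9.63 and 9.26 in OC.2- and 9.40, 9.51 and 9.66 in OC.2+ cells. Both fetal groups were below the adult arrays and overlapped each other. OC.2- cells were 1.61-fold (limma adjusted p = 0.000168) and OC.2+ cells 1.47-fold lower than adult cells (0.000720). After quantile normalization these log2 differences were -0.23 and 0.01, neither called (limma adjusted p = 0.0944 and 0.964).

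In OC.2+ cells 3 members were the highest of all groups. Slc16a10, the carrier of aromatic amino acids and thyroid hormone, measured 8.06 on each adult array, 7.33, 7.37 and 7.58 in OC.2- and 8.81, 8.89 and 8.88 in OC.2+ cells. OC.2- cells were thus the lowest, 1.56-fold under adult cells (limma adjusted p = 2.94e-05), and OC.2+ cells were 2.71-fold above OC.2- cells (2.39 to 3.06, limma adjusted p = 1.44e-08) and 1.74-fold above adult cells. Slc16a3, the lactate exporter of glycolytic cells and of leukocytes, read 6.26, 6.51 and 6.05, then 6.78, 6.65 and 6.73, then 7.30, 7.38 and 7.32. It climbed at both steps without overlap, by 1.36-fold (limma adjusted p = 0.00343) and 1.53-fold (0.000338). Slc16a6, which exports ketone bodies from hepatocytes, had 6.94, 7.04 and 7.10 in adult, 7.03, 7.33 and 7.13 in OC.2- and 8.05, 8 and 8.1 in OC.2+ cells. Its rise was confined to OC.2+ cells among the groups compared, 1.85-fold above OC.2- (limma adjusted p = 3.22e-06) and 2.04-fold above adult cells (4.01e-07), and OC.2- and adult cells overlapped (0.14, limma adjusted p = 0.227). Beside these rises, 10 of 10 measured erythroid markers and 11 of 12 granulocyte markers were called higher in OC.2+ cells when set against OC.2- cells, with median differences of 1.72 and 4.24, and their part in the rises was not tested.

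By count, 5 of the 10 Slc16a genes were called lower and 1 higher in OC.2- against adult cells, and 2 lower and 3 higher in OC.2+ against OC.2- cells. Lower calls were 50% and 20% of the family, beside 20.9% and 18.2% of all genes, and higher calls 10% and 30%, beside 23.7% and 20.3%. The remaining 4 (Slc16a8, Slc16a11, Slc16a13 and Slc16a14) had levels of 5.92 to 6.52, near or under the array medians. One of them, Slc16a13, is a liver lactate carrier next to Slc16a11 and was picked out after its values were seen. It was called lower in both fetal groups (differences of -0.43 from adult cells in each, limma adjusted p = 0.00117 and 0.000871). After cyclic loess and quantile normalization Slc16a11 was called lower in both fetal groups than in adult cells (-0.23 to -0.20). Slc16a8 was called lower in OC.2- than adult cells under the same scalings (-0.22 and -0.24). Slc16a14 was called higher in OC.2+ than adult cells with array weights (0.19, limma adjusted p = 0.0474).

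Among nucleoside carriers, Slc28a2 takes up purine nucleosides with sodium. It measured 7.16, 7.44 and 7.80 in adult, 5.95, 6.00 and 6.04 in OC.2- and 6.18, 6.17 and 6.08 in OC.2+ cells. The adult arrays were spread over more than 0.5 units but stayed above all fetal ones. It fell 2.77-fold in OC.2- (2.29 to 3.36, limma adjusted p = 7.66e-07) and 2.5-fold in OC.2+ cells (2.06 to 3.03), with 0.15 ± 0.13 (SE) between the fetal groups (limma adjusted p = 0.433). Slc28a1 and Slc28a3 stood at 5.73 to 6.34 and were not called as fitted here, though Slc28a1 was called lower in OC.2- than adult cells after cyclic loess (-0.23) and quantile normalization (-0.25). With array weights Slc28a1 was called higher in OC.2+ than OC.2- cells (0.24, limma adjusted p = 0.0363).

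Slc29a1 and Slc29a2 are the equilibrative carriers of the cell surface, and the former is abundant in red cells. Slc29a1 read 8.87, 8.87 and 8.85 in adult, 7.76, 7.83 and 8.14 in OC.2- and 8.70, 8.67 and 8.93 in OC.2+ cells. OC.2- cells stood apart below both other groups, which overlapped. The fall from adult to OC.2- cells was 1.94-fold (1.65 to 2.27, limma adjusted p = 7.88e-06), and OC.2+ cells were 1.81-fold above OC.2- cells (1.54 to 2.12, limma adjusted p = 2.15e-05). OC.2+ and adult cells differed by -0.10 (interval -0.33 to 0.13, limma adjusted p = 0.450), which turned to 0.34 and a call after quantile normalization (0.0417). The erythroid sum was 13.55 to 13.85 in OC.2- and 14.94 to 14.97 in OC.2+ cells, and its part in these values was not tested. Slc29a2 took another course, with 6.6, 6.72 and 6.55 in adult, 7.49, 7.80 and 7.59 in OC.2- and 7.51, 7.33 and 7.37 in OC.2+ cells. Both fetal groups lay above the adult arrays, by 2.01-fold (1.74 to 2.32, limma adjusted p = 1.82e-06) and 1.72-fold (1.49 to 1.98, limma adjusted p = 1.12e-05). Between them the difference was -0.22 and not called (limma adjusted p = 0.0880), but it was called without OC.2- replicate 1 (-0.29, 0.0431) and after cyclic loess scaling (-0.30, 0.0191). Slc29a3, a lysosomal member, had 7.54 to 7.80 and Slc29a4, a monoamine carrier, 5.70 to 5.97, with no call for either on the deposited scale. In OC.2- against adult cells, Slc29a3 was called higher after cyclic loess and quantile normalization (0.27 and 0.30), and Slc29a4 was called lower after these and after median centring (-0.24 to -0.21). In OC.2+ against adult cells, Slc29a3 was called higher after quantile normalization (0.23, limma adjusted p = 0.0159), and Slc29a4 was called lower after cyclic loess, quantile normalization and median centring (-0.28, -0.28 and -0.21).

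Uptake is one side of the hepatocyte's transport, and the genes of the other steps were counted from lists chosen for their known roles. Beside the counts below stand the shares of all genes given above, 20.9% lower and 23.7% higher in OC.2- against adult cells and 18.2% and 20.3% in OC.2+ against OC.2- cells. The export carriers were measured for 13 of 14 listed genes. OC.2- cells had 8 called lower and 2 higher than adult cells (median difference -0.53), and OC.2+ cells had 5 called lower than OC.2- cells (median -0.20). Abcb11, the bile salt export pump, was 12.1-fold lower in OC.2- than adult cells, and Abcc2, which exports bilirubin conjugates into bile, was 10.6-fold lower. Against OC.2- cells, OC.2+ cells were 3.96-fold lower for Abcc2, 3.25-fold for Abcb11 and 2.59-fold for Abcc6. Abcc3, an exporter to the blood side, was 2.73-fold higher in OC.2- than adult cells and 1.89-fold higher in OC.2+ than adult cells. Abcg2, an exporter of drugs and sulfated steroids, was also called higher, by 1.65-fold and 1.37-fold. Abcc4 and Slc51a were not called in any comparison.

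Transcription factors and nuclear receptors known to control hepatic carriers were measured for 18 of 20 listed genes. In OC.2- against adult cells 15 were called lower and 1 higher (median -1.14), with Nr0b2 7.79-fold, Esr1 5.15-fold and Nr1h4, the bile acid receptor, 3.69-fold lower. In OC.2+ against OC.2- cells 13 were called lower (median -1.15), among them Ppara (6.15-fold), Hnf4a (6.06-fold) and Nr5a2 (4.51-fold). All 18 were called lower in OC.2+ than in adult cells (median -2.13), beside 23.4% of all genes. Nr1h4 was 13.6-fold and Hnf4a 13.4-fold lower there. Hnf4a is also one of the 11 hepatocyte markers.

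The 8 measured partner genes, of 9 listed, hold carriers at the membrane and moved in both directions. Emb, the chaperone that brings Slc16a7 to the cell surface, was 6.29-fold higher in OC.2- than adult cells and 3.24-fold higher in OC.2+ than OC.2- cells. It thus rose at both steps while Slc16a7 fell. Bsg, the chaperone of Slc16a1 and Slc16a3, did not pass the test between OC.2- and adult cells (0.21, limma adjusted p = 0.0932) and was 2.53-fold lower in OC.2+ than OC.2- cells. Nherf1, a scaffold of apical carriers, fell 2.58-fold in OC.2+ against OC.2- cells, and Msn, an actin linker common in blood cells and endothelium, rose 2.35-fold. In OC.2- against adult cells the list had 3 called higher and 2 lower, and in OC.2+ against OC.2- cells 3 higher and 4 lower.

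Most genes of bile acid synthesis, all 14 of which were measured, were lower in the fetal groups. In OC.2- against adult cells 12 were called lower and 1 higher (median -2.60), with Cyp8b1, which sets the cholic acid share, 14.2-fold lower, Slc27a5, the bile acid ligase, 14-fold lower and Cyp39a1 11.2-fold lower. The higher one was Cyp7b1, of the alternative pathway (1.48-fold), and Cyp46a1, known from brain, was not called in any comparison. In OC.2+ against OC.2- cells 12 were called lower (median -0.98), led by Acox2 at 8.08-fold and Akr1d1 at 6.94-fold. Cyp7a1, the rate-limiting enzyme, was 24.4-fold lower in OC.2+ than adult cells. In that comparison 12 of the 14 were called lower, beside 23.4% of all genes.

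Enzymes that use the cargo of the nucleoside carriers split. Of 17, OC.2- cells had 9 called lower and 6 higher than adult cells (median -0.29), and OC.2+ cells had 8 called higher and 5 lower than OC.2- cells (median 0.10). Dck and Uck2, kinases that trap nucleosides in dividing cells, rose 4.07-fold and 3.06-fold in OC.2+ against OC.2- cells. Uox, the urate oxidase of the hepatocyte, fell 6.41-fold. In OC.2- against adult cells Xdh fell 7.11-fold and Nt5e, which makes adenosine outside the cell, 6.46-fold.

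For lactate, pyruvate and ketone bodies, 10 of 12 listed enzymes were measured. OC.2- cells had 7 called lower and 1 higher than adult cells (median -0.69), and OC.2+ cells 8 lower and 1 higher than OC.2- cells (median -0.83). Pdk4, which restrains pyruvate oxidation, was 5.72-fold lower at the first step and 4.18-fold lower at the next. Ldhb, a lactate dehydrogenase subunit, was 3.94-fold higher in OC.2- than adult cells. Pc, the first enzyme of glucose synthesis from pyruvate, and Bdh1, which makes the main ketone body, were 3.77-fold and 3.67-fold lower in OC.2+ than OC.2- cells.

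**Figure D4:**
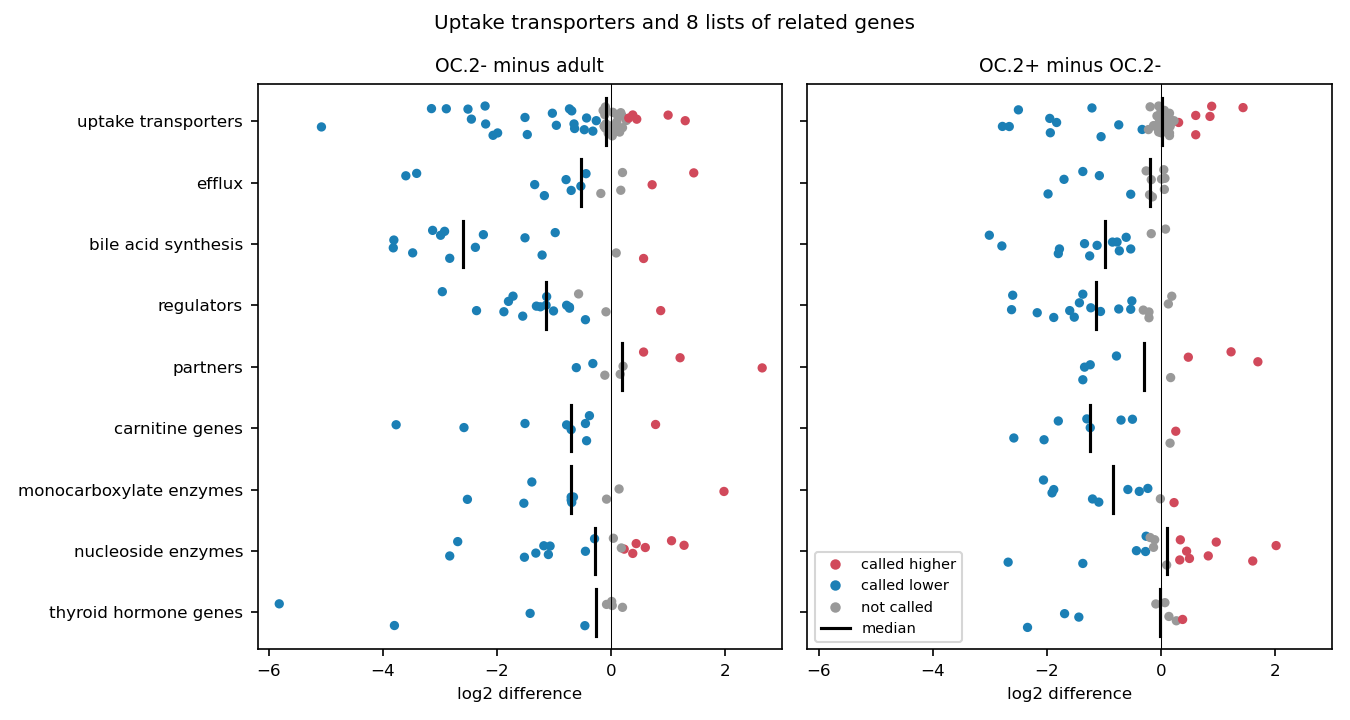
Log2 difference (x axis) of each measured gene (points) of the uptake transporters and 8 related lists (rows) in OC.2- minus adult cells (left) and OC.2+ minus OC.2- cells (right); red and blue points were called higher and lower, grey points were not called, and the black bar is the median. The medians of bile acid synthesis (-2.60 and -0.98) and of regulators (-1.14 and -1.15) lie left of 0 in both panels, while those of the uptake transporters (-0.09 and 0.01) lie near it.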

How the data were processed

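RNA of 9 cell preparations was measured on 1 array each, from an input of 150 ng per the labels' protocols. The authors deposited intensity values on a linear scale, and log2 was taken here. The submitters' processing notes list Partek 6.6 and RMA without giving their role. RMA as usually run evens out distributions and shrinks differences of dim genes. Neither the genome build nor the annotation was given in the sources used here. Of 28826 rows, a probe annotation table gave 15209 a single symbol, 306 several and 13311 none, and only the first were used. Genes with several rows (494) were represented by the row with the highest mean.

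Group means were fitted over all 9 arrays with limma 3.58.1 (R 4.3.3; lmFit, eBayes, 6 residual degrees of freedom, 2-sided). Names and promoters came from RefSeq tables (GRCr8), which held all 55 members. The members and lists were chosen with earlier results of these data known. Named genes were 12 hepatic carriers (3 of them without a probe set of their own) and, per comparison, the 8 highest and 8 lowest called members whose arrays did not overlap, plus up to 3 genes per related list. Some items are not reported here. Some genes named outside this rule are said to have been picked out after their values were seen, or are given by level only. Others, among them Slco1a6, Slc22a6, Slc22a13, Slc22a25 and Abcg2, carry differences or folds without being marked where they appear. Alternatives covered scaling, dim-gene filters, probe sets, variance model, array weights, samples in the fit, threshold, replicate block and each replicate left out.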

Additional observations from a re-analysis of the deposited data

How the results depend on the processing

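Each count and named gene was recomputed under other settings. With at least 2-fold added to the threshold, the members called higher fell from 6 to 1 in OC.2+ against OC.2- cells, from 6 to 2 in OC.2- against adult cells and from 11 to 3 in OC.2+ against adult cells, and those called lower in OC.2- against adult cells from 21 to 12. Keeping only genes at or above the median level left 6 higher in OC.2+ against adult cells. Every other setting gave each count within 1.5 times its value. Leaving out each replicate in turn gave 5 to 7 higher and 10 to 11 lower in OC.2+ against OC.2- cells, 4 to 6 and 19 to 21 in OC.2- against adult cells, and 9 to 11 and 17 to 18 in OC.2+ against adult cells. The titles number the replicates, but samples of one number did not deviate together (correlations from -0.23 to 0.11), and a replicate block gave 6 higher and 10 lower, 6 and 21, and 10 and 18. Quantile normalization turned Slc16a1 to 0.01 and Slc29a1 to 0.34 in OC.2+ against adult cells. Of the named genes' values, 1387 kept their call and its direction or stayed uncalled, and a change of sign in an uncalled value was not counted. Another 23 lost the call, 10 gained it, and 2 with a call before or after the change turned direction. No call of a member that differed at least 2-fold changed under the 20 settings that refit genes, wherever a filter left the gene in. The median over all genes in OC.2+ against adult cells was 0.11 as deposited and 0 after cyclic loess, so smaller differences there depend on scaling. Sizes also moved in OC.2- against adult cells, by up to 0.48 for members that differed at least 2-fold. Slc22a18 ran from -2.31 to -1.73 there, and Slc10a1 from -3.27 to -2.79. Quantile normalization kept 22 of the 27 calls in that comparison. The printed 95% intervals do not take in the choice of processing. Signal over background is unknown, so folds of genes that end near the array median may be too small.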

Other observations

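Genes of carnitine use, which handle the cargo of several Slc22a carriers, were measured for 9 of 9 listed. In OC.2- against adult cells 8 were called lower and 1 higher (limma, median log2 difference -0.70, beside 20.9% lower and 23.7% higher among all genes), with Cpt1a, the gate of mitochondrial fat oxidation, 13.6-fold lower and Bbox1, the last enzyme of carnitine synthesis, 5.99-fold lower. In OC.2+ against OC.2- cells 7 were called lower and 1 higher (median -1.24, beside 18.2% and 20.3% of all genes). Bbox1 was 5.97-fold, Aldh9a1 4.15-fold and Cpt2 3.47-fold lower there. Cpt1a was not called between the fetal groups, at 6.62 ± 0.02 in OC.2- and 6.78 ± 0.03 in OC.2+ cells (SD, n = 3).

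Thyroid hormone is carried by several of the transporters, and 8 of 8 listed genes of its handling were measured. Of these, 4 were called lower and 0 higher in OC.2- than adult cells (median -0.27), beside 20.9% and 23.7% of all genes. In OC.2+ against OC.2- cells 3 were called lower and 1 higher (median -0.01), beside 18.2% and 20.3% of all genes. Thrsp, a hormone-responsive gene of fat synthesis, was 56.5-fold lower and Dio1, the hepatic deiodinase, 14-fold lower in OC.2- than adult cells. Between the fetal groups Ttr, the plasma carrier of the hormone, was 5.08-fold and Thrb, its main hepatic receptor, 3.22-fold lower in OC.2+ cells. Ttr is also one of the 11 hepatocyte markers.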
